A study of Mus musculus with 8 samples.

Results

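A set of 10 genes that encode interferon-inducible antiviral proteins was followed in cultured 4T1 cells, a mouse mammary carcinoma line with wild-type genotype per the labels. They are Isg15, Usp18, Ifit1, Ifit2, Ifit3, Ifit3b, Rsad2, Ifi44, Mx1 and Bst2. They were selected by gene symbol, with earlier results of these data known, and all 10 had values among the 23215 genes shared by the deposited tables. RNA sequencing had been performed on 8 libraries in 2 groups. In the hypomethylated group (Hypo, replicates 2 to 5, n = 4) cells received SKL2001 and decitabine overnight. SKL2001 is a β-catenin stabilizer that activates canonical Wnt signaling, and decitabine is a nucleoside analog that traps DNA methyltransferases and lowers DNA methylation. In the control group (Ctrl, replicates 1 to 4, n = 4) cells received SKL2001 alone. All libraries thus share the Wnt agonist, and the comparison asks how RNA levels differ between hypomethylated and control cells under that agonist at a single time. Neither the labels nor the study's methods say that replicate libraries are separate cultures, and the p-values therefore measure only the spread between these libraries, which may be technical.

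Antiviral effectors of this kind are switched on when a cell senses foreign or misplaced nucleic acid or receives an interferon signal. Sensors such as RIG-I induce interferons, interferon receptors activate latent transcription factors, and these join IRF9 to bind the interferon-stimulated response element, a repeated GAAA sequence in the promoters of target genes. Some effectors can also be induced directly by interferon regulatory factors. The products act at different steps of infection: IFIT proteins bind viral RNA, viperin (Rsad2) makes a nucleotide that stops viral RNA synthesis, tetherin (Bst2) holds budding virus at the cell surface, and ISG15 is attached to other proteins as a ubiquitin-like tag.

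Of the 9 genes abundant enough to be tested (a mean of at least 10 normalized counts over the 8 libraries), 5 rose in hypomethylated cells and 4 did not pass the test, which was limma on the deposited transformed values with an adjusted p below 0.05. Over all 15746 genes tested, 22.8% were called, 14.1% as higher and 8.75% as lower in Hypo. Because these genes and the lists below were chosen with earlier results known, counts set beside such shares describe them and are not a test. Isg15, Usp18, Ifit1, Ifit3b and Rsad2 rose, each 2.0-fold to 2.30-fold. Ifit2, Ifit3, Ifi44 and Bst2 did not pass, and Mx1 was too low to be tested. The median difference of the 9 tested genes was 1.0 on the log2 scale of the normalized count plus 1, beside 0.0054 for all genes tested. The Hypo libraries lay wholly above the Ctrl libraries for these 5 genes and overlapped them for the other 4, where over all genes tested 15.4% lay wholly above, 10.3% wholly below and 25.7% did not overlap in either direction. In bulk RNA a larger number of expressing cells and more RNA per cell cannot be told apart.

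**Figure D1:**
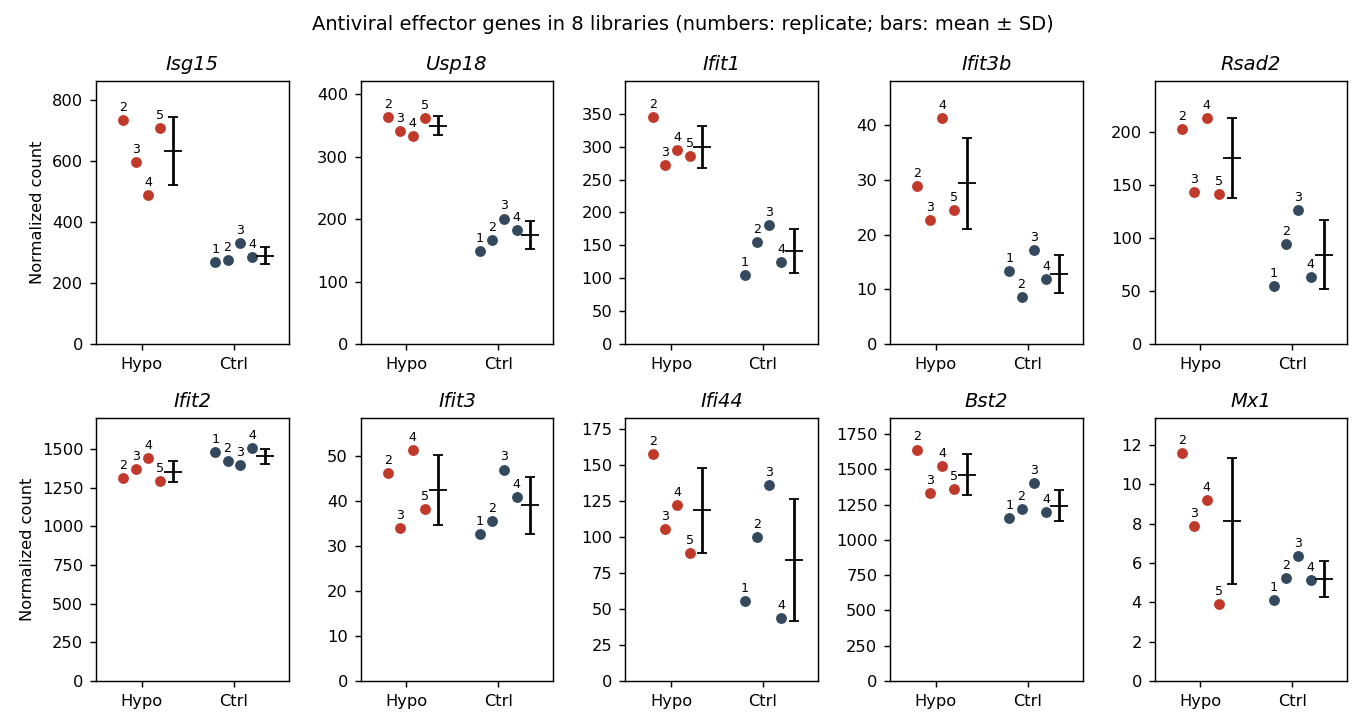
Normalized counts of the 10 genes (vertical axes, linear and starting at 0) in the Hypo libraries (red) and the Ctrl libraries (dark blue). Each point is 1 library with its replicate number, and bars give the mean ± SD of 4 libraries. The groups are apart for Isg15, Usp18, Ifit1, Ifit3b and Rsad2 and overlap for the other genes.

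The libraries held between 27486245 and 39388394 reads assigned to genes. Ctrl replicate 3 stood apart. The chi-square per degree of freedom between its reads and those of the other Ctrl libraries was 25.7 to 36.1, against 4.52 to 6.03 among those other libraries. Hypo replicate 4 was also apart from its group, to a lesser degree. Its values against the other Hypo libraries were 12.4 to 22.0, and those among the other Hypo libraries were 6.41 to 11.5. For Ctrl replicate 3 further values follow. The summed normalized count of 15 integrated stress response genes in Ctrl replicate 3 was 113613. It was 68299 to 84679 in the Hypo libraries and 61862 to 77060 in the other Ctrl libraries. Ctrl replicate 3 had the highest Ctrl value for 9 of the 10 antiviral genes (all but Ifit2, for which it was lowest), and Ctrl replicate 1 had the lowest Ctrl value for 7. The part of the stress response in these values was not tested. Where leaving out Ctrl replicate 3 changed the call of a member, the value without it is given beside the result. The number of calls without it is also given for the interferon signaling genes and the other antiviral genes. All 10 epithelial markers examined, such as Epcam, Cdh1 and Krt8, had counts in every library.

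RefSeq promoter windows, from 250 bases before to 50 after a gene's start on GRCm38.p6, were matched for 8 of the 10 genes, and Usp18 and Mx1 had none. They are shown because interferon signals are known to act through a sequence in the promoters of target genes. The core motif of the interferon-stimulated response element, 10 bases long and spelled GAAA, any 2 bases and GAAA again, was searched on both strands. It was found in windows of 6 genes (Isg15, Ifit1, Ifit3, Ifit3b, Rsad2 and Bst2) and not in those of Ifit2 or Ifi44. The motif was in 3.44% of all 32851 windows and in 3.04% of the 14021 windows of tested genes. The stretches below carry the motif, or its reverse complement (TTTC, any 2 bases and TTTC), in capitals with 40 bases on either side, 5′ to 3′ on the strand of the gene. They lie at chr4:156200835-156200936 (Isg15, minus strand), chr19:34640745-34640853 (Ifit1, plus), chr19:34583333-34583456 (Ifit3, plus), chr19:34607729-34607852 (Ifit3b, plus), chr12:26456523-26456612 (Rsad2, minus) and chr8:71537547-71537642 (Bst2, minus).
Isg15: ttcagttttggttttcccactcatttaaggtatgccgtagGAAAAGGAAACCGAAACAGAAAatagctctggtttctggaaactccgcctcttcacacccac
Ifit1: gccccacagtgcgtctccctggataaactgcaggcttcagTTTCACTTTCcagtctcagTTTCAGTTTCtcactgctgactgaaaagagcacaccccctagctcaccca
Ifit3: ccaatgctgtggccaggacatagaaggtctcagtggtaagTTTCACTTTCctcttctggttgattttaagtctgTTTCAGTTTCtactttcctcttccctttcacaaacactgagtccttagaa
Ifit3b: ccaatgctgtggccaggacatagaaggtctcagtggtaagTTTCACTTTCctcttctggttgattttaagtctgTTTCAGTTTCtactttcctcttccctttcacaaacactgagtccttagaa
Rsad2: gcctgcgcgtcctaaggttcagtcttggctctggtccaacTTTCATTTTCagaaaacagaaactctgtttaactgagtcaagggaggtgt
Bst2: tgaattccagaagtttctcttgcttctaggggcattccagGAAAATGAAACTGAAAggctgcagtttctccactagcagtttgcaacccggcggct
The Isg15 stretch holds 3 overlapping matches and the Bst2 stretch 2, those of Ifit1, Ifit3 and Ifit3b hold 2 separate ones each, and that of Rsad2 holds 1. The printed stretches of Ifit3 and Ifit3b are identical, and their windows matched at 259 of 260 aligned bases. Of the 6 genes with a match, Isg15, Ifit1, Ifit3b and Rsad2 rose, and Ifit3 and Bst2 did not pass the test. CpG dinucleotides, the sites at which DNA is methylated, numbered 1 each in the windows of Ifit3 and Ifit3b, 4 in that of Ifit1, 6 each in those of Isg15, Rsad2 and Ifi44, 11 in that of Bst2, and 10 and 11 in the Ifit2 windows. The median over windows of tested genes was 20. Matches describe letters only, and methylation of these windows was not measured here.

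Isg15 and Usp18 encode the tag and the removing enzyme of the same modification, and both rose. Isg15 (ENSMUSG00000035692, chromosome 4, 156199424 to 156200818, minus strand, GRCm38) encodes the ubiquitin-like tag. Its normalized counts were 733, 597, 488 and 708 in Hypo replicates 2, 3, 4 and 5, against 268, 274, 330 and 284 in Ctrl replicates 1, 2, 3 and 4. Every Hypo library was above every Ctrl library, and Hypo replicate 4 was the lowest of its group. The group means were 632 ± 112 and 289 ± 27.9 normalized counts (SD, n = 4 each), a 2.19-fold rise (0.74 ± 0.09 SE on the transformed scale, limma adjusted p = 7.7e-05). On the log2 scale of the normalized count plus 1 the limma 95% interval of the difference was 0.85 to 1.38.

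Usp18 (ENSMUSG00000030107, chromosome 6, 121245906 to 121270917, plus strand) encodes the protease that removes ISG15 from proteins and that also dampens signaling at the type I interferon receptor. It had 363, 341, 332 and 362 normalized counts in Hypo replicates 2 to 5, against 149, 167, 201 and 183 in Ctrl replicates 1 to 4. The Hypo libraries were close to each other, with a coefficient of variation of 4.37%, against 12.8% in Ctrl, and the groups did not overlap. The means were 350 ± 15.3 in Hypo and 175 ± 22.4 in Ctrl (SD, n = 4 each), a 2.0-fold rise with a limma adjusted p of 2.4e-05. This was the smallest p-value of the 9 genes.

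The enzymes that attach ISG15 differed less between the groups. Trim25, an ISG15 and ubiquitin ligase that also activates RIG-I, averaged 4481 ± 118 normalized counts in Hypo and 3837 ± 169 in Ctrl (SD, n = 4 each), a 1.17-fold rise with a limma adjusted p of 0.0051. The conjugating enzyme Ube2l6 averaged 529 ± 18.5 in Hypo and 436 ± 43.2 in Ctrl, and the ligase Herc6 averaged 633 ± 68.6 in Hypo and 515 ± 22.9 in Ctrl (SD, n = 4 each). They rose 1.21-fold and 1.23-fold with limma adjusted p-values of 0.033 and 0.031. Both calls depended on single libraries. Ube2l6 was no longer called without Hypo replicate 2, 3 or 4 or Ctrl replicate 2 or 4, and Herc6 was no longer called without Hypo replicate 2 or 3 or Ctrl replicate 1, 2 or 4, with limma adjusted p-values up to 0.086 and 0.098. Uba7, the enzyme that activates ISG15 at the start of the cascade, averaged 92.1 ± 20.3 in Hypo and 102 ± 15.6 in Ctrl and did not pass (limma adjusted p = 0.58).

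The 4 Ifit genes, which encode tetratricopeptide-repeat proteins that bind RNA, lie together on chromosome 19 and differed unequally between the groups. Ifit1 and Ifit3b rose, whereas Ifit2 and Ifit3 did not pass. Ifit1 (ENSMUSG00000034459, 34640871 to 34650009, plus strand) recognizes RNA whose cap lacks methylation marks of the host. It had 345, 272, 295 and 285 normalized counts in Hypo replicates 2 to 5, against 105, 156, 181 and 125 in Ctrl replicates 1 to 4. The lowest Hypo library was above the highest Ctrl library, which was Ctrl replicate 3. The means were 299 ± 31.6 in Hypo and 142 ± 33.7 in Ctrl (SD, n = 4 each), a 2.11-fold rise with a limma adjusted p of 0.00024.

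Ifit3b (ENSMUSG00000062488, 34607970 to 34613401, plus strand) is a mouse duplicate of Ifit3. Its values were low, with 28.9, 22.7, 41.3 and 24.6 normalized counts in Hypo replicates 2 to 5, against 13.3, 8.69, 17.2 and 12.0 in Ctrl replicates 1 to 4. They rested on 25 to 45 reads per Hypo library and 10 to 19 reads per Ctrl library. The groups did not overlap, and Hypo replicate 4 was the highest. The means were 29.4 ± 8.37 in Hypo and 12.8 ± 3.52 in Ctrl (SD, n = 4 each), a 2.30-fold rise with a limma adjusted p of 0.011. The call was lost after quantile normalization (limma adjusted p = 0.13).

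Ifit3 (ENSMUSG00000074896, 34583531 to 34588731, plus strand), whose human counterpart binds and stabilizes IFIT1, had 46.3, 34.1, 51.4 and 38.4 normalized counts in Hypo replicates 2 to 5, against 32.8, 35.6, 47.1 and 41.0 in Ctrl replicates 1 to 4. The groups overlapped almost fully. The means were 42.5 ± 7.79 in Hypo and 39.1 ± 6.31 in Ctrl (SD, n = 4 each; limma adjusted p = 0.71), and the 95% interval of the difference on the log2 scale of the normalized count plus 1 was -0.32 to 0.55. The Ifit3 and Ifit3b transcripts were 98.0% identical over 1697 aligned bases. Of the 100-base windows of the Ifit3 exons 31.7% occurred also in Ifit3b, and 27.4% of those of Ifit3b in Ifit3. Reads from such stretches cannot be assigned to either gene uniquely, so the levels of this pair are uncertain.

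Ifit2 (ENSMUSG00000045932, 34550694 to 34576419, plus strand), which restricts several viruses in mice, was the most abundant of the 4. It had 1309, 1371, 1441 and 1291 normalized counts in Hypo replicates 2 to 5, against 1481, 1419, 1399 and 1509 in Ctrl replicates 1 to 4. The groups overlapped at Hypo replicate 4 and the lower Ctrl libraries, and the values were tight, with coefficients of variation of 5.01% in Hypo and 3.54% in Ctrl. The means were 1353 ± 67.8 in Hypo and 1452 ± 51.3 in Ctrl (SD, n = 4 each; limma adjusted p = 0.23). The 95% interval of the difference on the log2 scale of the normalized count plus 1 was -0.23 to 0.026, so a rise of the size of those of Ifit1 or Ifit3b lay outside it.

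Ratios between Ifit genes within each library were compared over all 6 pairs with a two-sided exact permutation test over libraries, whose smallest possible p is 0.029. The log2 ratio of Ifit3b to Ifit3 averaged -0.54 ± 0.16 in Hypo and -1.56 ± 0.30 in Ctrl (SD, n = 4 each), a difference of 1.03 (exact permutation p = 0.029, 0.043 adjusted over the 6 pairs). The log2 ratio of Ifit1 to Ifit2 averaged -2.18 ± 0.18 in Hypo and -3.38 ± 0.39 in Ctrl (SD, n = 4 each), a difference of 1.20 with the same exact permutation p and adjusted p. The Hypo and Ctrl ratios did not overlap in either pair. The ratios of Ifit1 to Ifit3 and of Ifit3b to Ifit2 also differed, by 0.99 and 1.24 on the log2 scale, with the same exact permutation p. Those of Ifit1 to Ifit3b and of Ifit3 to Ifit2 differed by -0.04 and 0.22 and did not pass (exact permutation p = 0.97 and 0.29). In these counts Ifit1 and Ifit3b thus differed in their change from both Ifit2 and Ifit3. Ratios with Ifit3 or Ifit3b carry the uncertainty of the levels of that pair, and only the ratio of Ifit1 to Ifit2 uses neither gene.

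**Figure D2:**
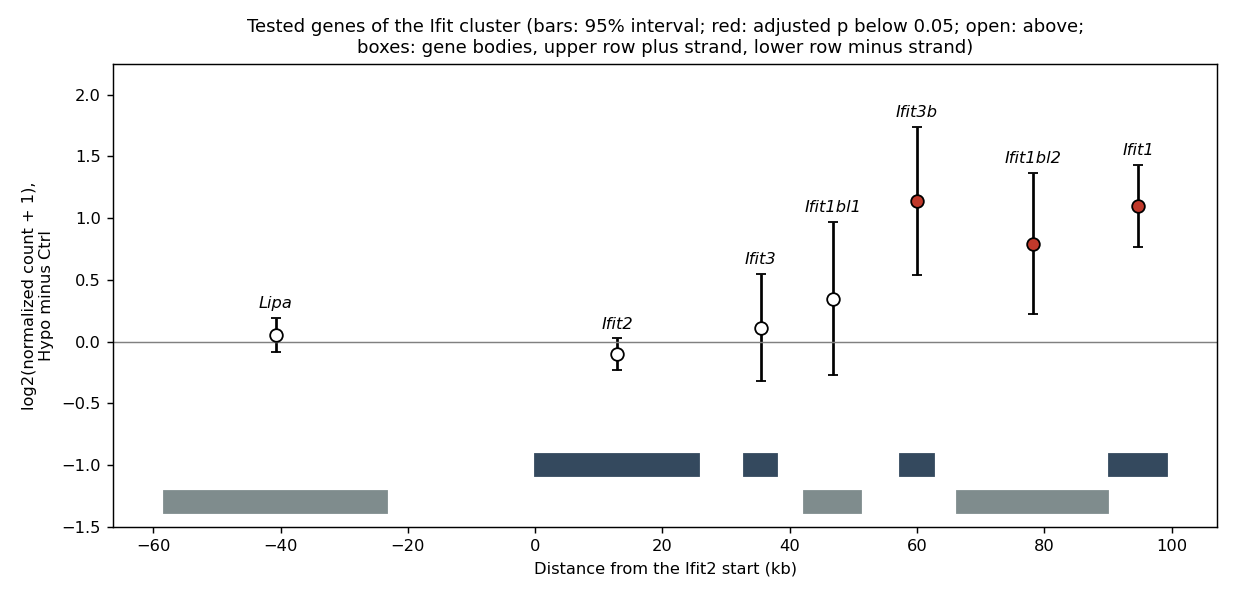
Difference on the log2 scale of the normalized count plus 1, Hypo minus Ctrl (vertical axis, bars are limma 95% intervals), for the tested genes around the Ifit cluster against the distance from the Ifit2 start in kb. Red points passed limma at an adjusted p below 0.05 on the transformed values and open points did not, and boxes show gene bodies with the plus strand in the upper row. The 3 called genes, Ifit3b, Ifit1bl2 and Ifit1, lie together at the end of the cluster away from Ifit2.

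The less studied Ifit relatives of the cluster lay between these genes. Ifit1bl2 starts on the opposite strand 128 bases from the Ifit1 start, so both genes flank the Ifit1 stretch printed above. It averaged 24.1 ± 6.36 normalized counts in Hypo and 13.4 ± 3.18 in Ctrl (SD, n = 4 each), a 1.80-fold rise with a limma adjusted p of 0.046. This call was lost without Hypo replicate 2, 3 or 5 or Ctrl replicate 1, 2 or 4, with limma adjusted p-values of 0.052 to 0.12, and 3.29% of the 100-base windows of Ifit1 also occurred in it. Ifit1bl1, between Ifit3 and Ifit3b, averaged 27.9 ± 3.49 in Hypo and 23.0 ± 9.05 in Ctrl and did not pass (limma adjusted p = 0.45). Neither did Lipa, a lysosomal lipase gene next to Ifit2, with 1863 normalized counts in Hypo and 1796 in Ctrl (limma adjusted p = 0.60).

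Rsad2 (ENSMUSG00000020641, chromosome 12, 26442746 to 26456452, minus strand), the gene of viperin, had 202, 143, 213 and 142 normalized counts in Hypo replicates 2 to 5, against 54.3, 93.9, 126 and 63.3 in Ctrl replicates 1 to 4. The values spread widely in both groups, with Hypo replicates 2 and 4 high and Ctrl replicate 3 close below the lowest Hypo libraries, but did not overlap. The means were 175 ± 38.0 in Hypo and 84.3 ± 32.5 in Ctrl (SD, n = 4 each), a 2.08-fold rise with a limma adjusted p of 0.0059. Its neighbor Cmpk2, a mitochondrial nucleotide kinase whose product feeds the viperin reaction, averaged 125 ± 29.4 in Hypo and 86.1 ± 12.9 in Ctrl (SD, n = 4 each). It did not pass (limma adjusted p = 0.064) but did without Hypo replicate 4 (limma adjusted p = 0.0062).

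Ifi44 (ENSMUSG00000028037, chromosome 3, 151730922 to 151749960, minus strand), an interferon-inducible cytoplasmic protein gene, had 157, 106, 122 and 88.5 normalized counts in Hypo replicates 2 to 5, against 55.3, 99.95, 136 and 43.6 in Ctrl replicates 1 to 4. Ctrl replicates 2 and 3 fell within the Hypo range, and the Ctrl coefficient of variation of 50.7% was the highest of the 10 genes. The means were 118 ± 29.3 in Hypo and 83.7 ± 42.4 in Ctrl (SD, n = 4 each), a ratio of 1.41 that did not pass (limma adjusted p = 0.21). Without Ctrl replicate 3 it passed (limma adjusted p = 0.023).

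Mx1 (ENSMUSG00000000386, chromosome 16, 97447035 to 97462907, minus strand) encodes a dynamin-like GTPase against influenza viruses and is defective in many laboratory mouse strains. It rested on 4 to 10 reads per Hypo library and 4 to 7 reads per Ctrl library. Its normalized counts were 11.6, 7.86, 9.18 and 3.93 in Hypo replicates 2 to 5, against 4.10, 5.21, 6.34 and 5.13 in Ctrl replicates 1 to 4. Hypo replicate 5 was the lowest library of all, and the limma adjusted p without a filter on low genes was 0.39. Its cytoplasmic relative Mx2 was higher and averaged 83.0 ± 11.2 normalized counts in Hypo and 27.7 ± 6.73 in Ctrl (SD, n = 4 each), a 3.0-fold rise with a limma adjusted p of 8.4e-05. Of the 8 tested family relatives and ISG15-conjugating enzymes 5 rose, where 14.1% of all genes tested rose. The number was 2 without Hypo replicate 2, Hypo replicate 3, Ctrl replicate 2 or Ctrl replicate 4, and 3 without Ctrl replicate 1.

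Bst2 (ENSMUSG00000046718, chromosome 8, 71534255 to 71537456, minus strand), the gene of tetherin, had 1641, 1330, 1524 and 1360 normalized counts in Hypo replicates 2 to 5, against 1153, 1219, 1403 and 1200 in Ctrl replicates 1 to 4. Ctrl replicate 3 lay above the lower Hypo libraries, and the other Ctrl libraries lay below every Hypo library. The means were 1464 ± 146 in Hypo and 1244 ± 110 in Ctrl (SD, n = 4 each), a ratio of 1.18 that did not pass (limma adjusted p = 0.063). It passed without Ctrl replicate 3 (limma adjusted p = 0.010) and narrowly without Hypo replicate 5 (limma adjusted p = 0.050). Without Ctrl replicate 3, 7 of the 9 tested genes were called, with Bst2 and Ifi44 added.

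**Figure D3:**
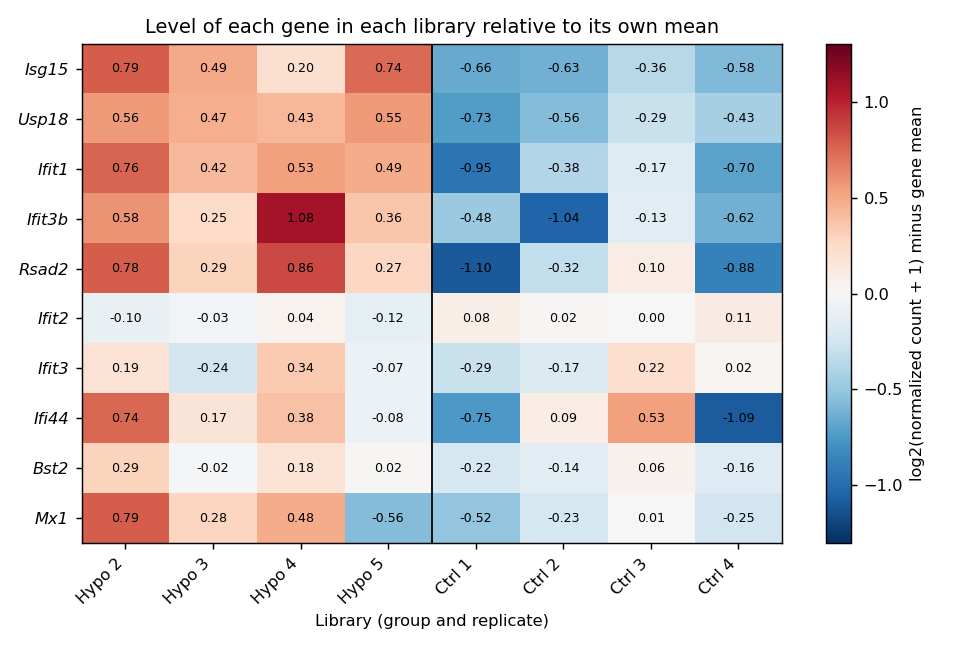
Level of each of the 10 genes in each library as log2 of the normalized count plus 1 minus the mean of that gene over the 8 libraries (color and printed value), with Hypo libraries left of the line and Ctrl libraries right of it. Isg15, Usp18, Ifit1 and Ifit3b are above their mean in each Hypo library and below it in each Ctrl library, and Ifit2 is close to its mean throughout, between -0.12 and 0.11.

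Per kb of exon, Bst2 was the most abundant of the 10 genes in both groups, with 1621 normalized counts per kb in Hypo and 1377 in Ctrl. Isg15 was next, with 836 in Hypo and 382 in Ctrl, and then Ifit2, with 344 in Hypo and 370 in Ctrl. Isg15 was above Ifit2 in every Hypo library, whereas the values of this pair overlapped in Ctrl. Usp18 and Ifit1 followed, with 125 and 113 per kb in Hypo and 62.7 and 53.3 in Ctrl, and overlapped each other in both groups. Rsad2, Ifit3, Ifi44 and Ifit3b lay between 14.7 and 40.4 per kb in Hypo and between 6.40 and 22.4 in Ctrl, and Mx1 was lowest, with 2.15 per kb in Hypo and 1.37 in Ctrl. Ifit3 stood below Rsad2 in Hypo and above it in Ctrl, where the values of the pair overlapped. The levels of Ifit3 and Ifit3b are uncertain here too, because part of their reads cannot be assigned uniquely. Of the summed level per kb of the 10 genes Isg15 made up 26.6% ± 3.86 in Hypo and 16.5% ± 0.371 in Ctrl (SD, n = 4 each), and Ifit2 made up 11.0% ± 1.19 in Hypo and 16.1% ± 1.64 in Ctrl.

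The genes that carry an interferon signal were examined next. Among 21 listed interferon genes only 2, Ifnab and Ifne, had normalized counts, and neither reached the level needed for testing. Ifnab, a type I interferon gene, had 9.25, 11.4, 2.75 and 17.7 normalized counts in Hypo replicates 2 to 5, against 0, 0, 1.81 and 1.71 in Ctrl replicates 1 to 4. The groups did not overlap, and without a filter on low genes its limma adjusted p was 0.0060. Ifne went the other way, with a mean of 0.69 in Hypo and 1.55 in Ctrl. Its groups overlapped, and its limma adjusted p without that filter was 0.68. Of the 19 tested receptors, kinases, transcription factors and feedback inhibitors 9 rose and 10 did not pass, where 14.1% of all genes tested rose. Their median difference was 0.22 on the log2 scale of the normalized count plus 1.

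The transcription factors Irf7, Irf8 and Irf9 were among those that rose. Irf7, which amplifies the type I interferon response, averaged 429 ± 46.2 normalized counts in Hypo and 226 ± 52.4 in Ctrl (SD, n = 4 each), a 1.90-fold rise with a limma adjusted p of 0.00054. Irf8, a factor known best from myeloid cells, averaged 952 ± 154 in Hypo and 559 ± 103 in Ctrl (SD, n = 4 each), 1.70-fold higher with a limma adjusted p of 0.0017. Irf9 was 1.48-fold higher, with a limma adjusted p of 0.0052. These 3 calls held when any single library was left out. Stat2 was 1.18-fold higher (limma adjusted p = 0.023), a call lost without Hypo replicate 2, 3 or 4 or Ctrl replicate 1 or 4 (limma adjusted p up to 0.075). The feedback inhibitor Socs3 was 1.26-fold higher (limma adjusted p = 0.011). The receptor chains Il10rb, Ifnlr1 and Ifngr1 were 1.28-fold, 1.22-fold and 1.16-fold higher (limma adjusted p = 0.017, 0.042 and 0.037), and each lost its call without 1 or more single libraries, Hypo replicate 2 in every case (limma adjusted p = 0.050 to 0.11). The constitutive factor Irf3 had 1683 ± 68.3 in Hypo and 1759 ± 114 in Ctrl (SD, n = 4 each; limma adjusted p = 0.50), and the type I receptor chains Ifnar1 and Ifnar2 did not pass either (limma adjusted p = 0.85 and 0.44).

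**Figure D4:**
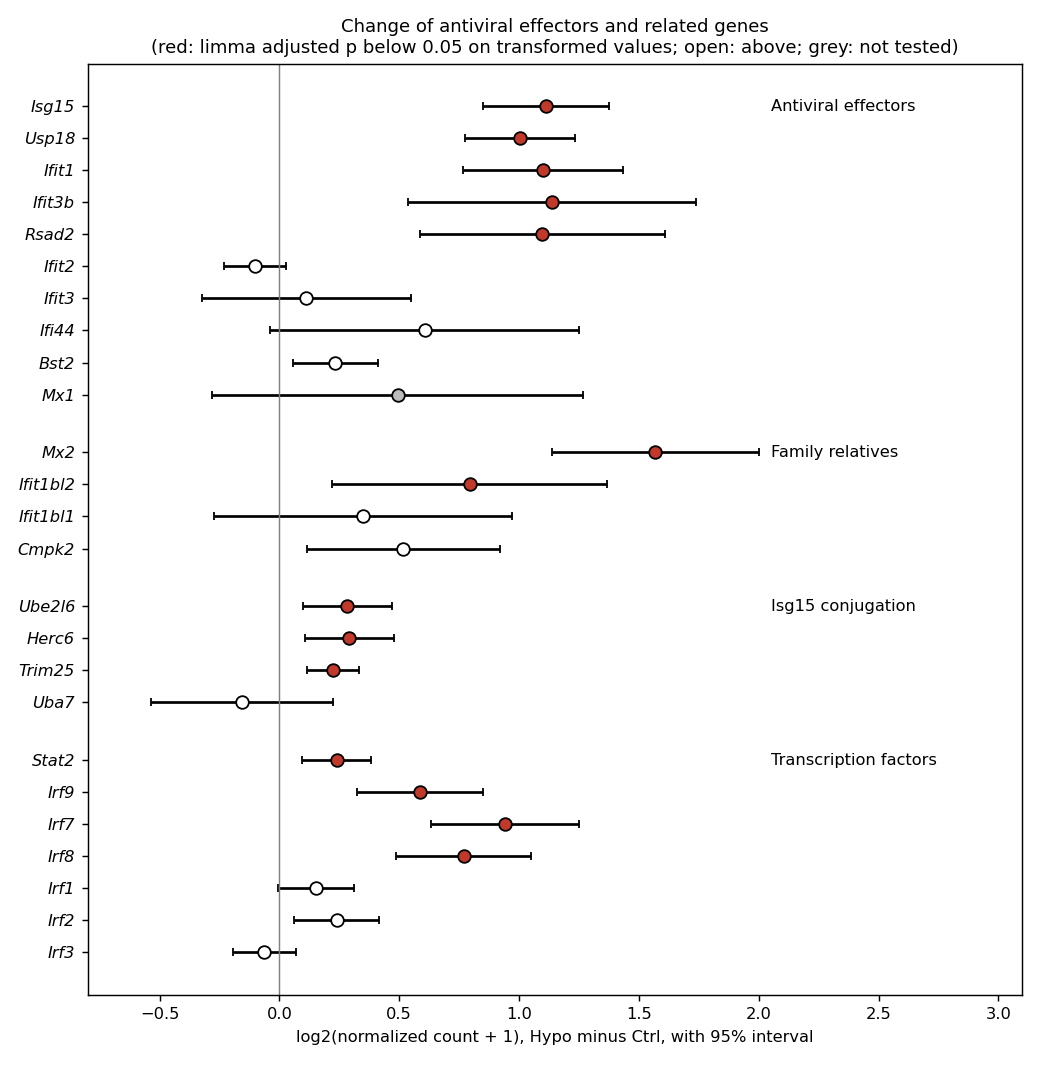
Difference on the log2 scale of the normalized count plus 1, Hypo minus Ctrl, with limma 95% intervals (horizontal axis), for the 10 antiviral effectors, their relatives, the ISG15-conjugating enzymes and 7 interferon transcription factors. Red points passed limma at an adjusted p below 0.05 on the transformed values, open points did not and the grey point (Mx1) was not tested. Among the 10 effectors the 5 red points lie between 1.0 and 1.14, and Ifit2 is the only one below 0.

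Among 14 nucleic acid sensors and adaptors 5 rose, 1 fell and 8 did not pass, where 14.1% of all genes tested rose and 8.75% fell. Their median difference was 0.25 on the log2 scale of the normalized count plus 1. Aim2, a sensor of cytosolic DNA, averaged 356 ± 94.6 normalized counts in Hypo and 15.2 ± 4.40 in Ctrl (SD, n = 4 each), 23.3-fold higher with a limma adjusted p of 1.9e-07. Zbp1, which binds left-handed nucleic acid, was 2.20-fold, Ifih1 (the RNA sensor MDA5) 1.48-fold and Rigi 1.35-fold higher, with limma adjusted p-values of 0.0011, 3.9e-05 and 0.00040. These 4 calls held when any single library was left out. Mavs, the adaptor of the RNA sensors, averaged 1707 ± 128 in Hypo and 2124 ± 272 in Ctrl (SD, n = 4 each; limma adjusted p = 0.022), a fall that no longer passed without Hypo replicate 2, 3 or 5 (limma adjusted p = 0.053 to 0.055). Of the 33 tested genes of interferon signaling and sensing combined 14 rose and 1 fell, to be read beside the same shares. Without Hypo replicate 2, 9 rose, and without Ctrl replicate 3, 17 rose and 3 fell, with Irf1, Irf2 and Jak1 among the genes then called (limma adjusted p = 0.0025 to 0.040).

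Of 39 other tested antiviral and interferon-inducible genes 21 rose and 18 did not pass, with a median difference of 0.44 on the log2 scale of the normalized count plus 1. Oasl2, of the oligoadenylate synthetase family, averaged 1265 ± 135 normalized counts in Hypo and 517 ± 128 in Ctrl (SD, n = 4 each), 2.44-fold higher with a limma adjusted p of 2.6e-05. Trim21, an intracellular antibody receptor, was 1.73-fold higher (limma adjusted p = 8.8e-05). Without Ctrl replicate 3, 26 of these genes rose and 2 fell. The 21 rises compare with 5 of 9 tested members and 14.1% of all genes tested.

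The 8 genes closest to the median profile of the tested members over the 8 libraries, among 15737 genes compared, were Ccdc162, Tjp3, Oas1b, Irf8, Setd4, Wdr31, Ankrd24 and Rdm1. Their root mean square differences from it were 0.082 to 0.10 on the log2 scale of the normalized count plus 1. Of these Oas1b and Irf8 are on the lists of interferon-related genes used here.

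Neighbors of the members were examined as well. Of 38 other annotated protein-coding genes within 100 kb of a member 27 were tested, of which 5 rose and 2 fell, so that 7 were called, a share close to the 22.8% of all genes tested. The calls of Plekhn1, Gtpbp3 and Ifit1bl2 among these were each lost under 13 of the alternatives tried, 6 or 7 of them with a single library left out (limma adjusted p up to 0.14, 0.15 and 0.12 in those). Rnf223 near Isg15 was 3.15-fold and Tuba8 near Usp18 2.42-fold higher (limma adjusted p = 0.00014 and 0.00025). Slc6a13, also near Usp18, had 45.8 normalized counts in Hypo and 83.0 in Ctrl (limma adjusted p = 0.0060). The abundant Agrn, which lies 1936 bases from Isg15, had 18200 normalized counts in Hypo and 19245 in Ctrl and did not pass (limma adjusted p = 0.48).

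Summed counts of markers of other cell types were higher in Hypo, though not every marker passed. Of those tested, 3 of 5 immune and 2 of 3 plasmacytoid dendritic cell markers rose. So did 4 of 5 fibroblast and 1 of 2 endothelial markers, beside 14.1% of all genes tested. Cd68, Lyz2, Pacsin1, Pdgfra and Pecam1 did not pass (limma adjusted p = 0.055 to 0.48). Without Ctrl replicate 3 Cd68 passed (limma adjusted p = 0.0085). The summed normalized count of 10 immune cell markers was 799.7 to 1015 in the Hypo libraries and 365 to 674 in the Ctrl libraries, of which Cd68 and Csf1r made up most. Of these markers 6 entered the sums, and 4, among them Cd3e, Adgre1 and Nkg7, did not. Ptprc, the pan-leukocyte marker, averaged 35.5 ± 5.55 in Hypo and 9.26 ± 1.48 in Ctrl (SD, n = 4 each). For 6 markers of plasmacytoid dendritic cells, which are strong interferon producers, the sums were 846 to 1182 in Hypo and 497 to 735 in Ctrl, nearly all from Irf8. Siglech, Ccr9 and Cd209d of that list did not enter the sums. The sums of 8 fibroblast markers were 5365 to 5628 in Hypo and 3330 to 3940 in Ctrl, and those of 7 endothelial markers were 113 to 136 in Hypo and 28.1 to 57.4 in Ctrl, without Lum, Emcn and Cldn5. The sums of the 10 epithelial markers were 134166 to 153420 in Hypo and 145396 to 164847 in Ctrl. Of these 10, 1 rose and 1 fell. The called markers were Epcam and Krt7 (limma adjusted p = 0.00036 and 0.00038), and both calls held under all 22 alternatives. Krt14 did not pass (limma adjusted p = 0.26) but did without Ctrl replicate 3 (limma adjusted p = 0.0064). The part of the markers of all these cell types in the rise of the antiviral genes was not tested.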

How the data were processed

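Per the labels and the study's methods, polyadenylated RNA of 8 libraries was made into stranded paired-end libraries. The submitters' processing notes name bcl2fastq, STAR, HTSeq, DESeq2 and GRCm38, and no source used here says if strand was used in counting, so overlapping antisense genes may share reads. The authors deposited a signal per gene and library, reads divided by a size factor (normalized counts, 23606 genes), with columns of their own comparison (mean, log2 fold change, standard error, test statistic and p-values) that were not used, and variance-stabilized values on a log2-like scale (27336 genes), in which differences of low genes are compressed. In every library 100% of the normalized counts were whole multiples of 1 read (tolerance 0.01), and the recovered reads per library set the precision, for counting error only.

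Differences were tested with limma 3.58.1 (trend, two-sided, Benjamini-Hochberg over 15746 genes averaging 10 or more normalized counts) on the deposited log2-like values in R 4.3.3. The same fit on log2 of the normalized count plus 1 gave the 95% intervals, which are not adjusted for multiple genes. Folds are ratios of group mean normalized counts. On recovered reads edgeR 4.0.16 with TMM called 3691 genes and DESeq2 1.42.0 called 4168, and both called 5 of the 9 tested members. On data simulated for Hypo against Ctrl over 15746 genes, with 200 genes changed by 1 on the log2 scale, limma recovered 89% of them with 4 false calls. There edgeR recovered 88.5% with 4 false calls and DESeq2 85.5% with 10. The simulation held no library standing apart and far fewer changed genes than were called here. Its figures therefore need not hold for these data. Ratios were tested by exact permutation (scipy 1.17.1), and transcripts were aligned with Biopython 1.88. Positions follow the GENCODE annotation of GRCm38, and promoter sequences are RefSeq's on GRCm38.p6.

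The members and lists were chosen with earlier results of these data known. Named were the members, their relatives, the ISG15 enzymes, interferon receptors, kinases and transcription factors, the 6 genes of smallest p of each other list, genes within 100 kb of a member and the 8 closest profiles. Some genes that this rule names are not reported here. Alternatives were no filter or a minimum of 50, other scales (log2 of the normalized count plus 1 or 5), centering and quantile normalization, limma without trend or with array weights, edgeR, DESeq2, libraries left out and a replicate block. The 6 libraries of the block without it were added after seeing the data.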

Additional observations from a re-analysis of the deposited data

Results flagged for a closer look

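Ifnb1, the interferon beta gene, had values only in the transformed table, which the comparisons above do not use alone. Matched to the reads of other genes with the same transformed value in the same library, they correspond to 2, 3, 4 and 2 reads in Hypo replicates 2 to 5, a sum of 11, and to 0 reads in each of the 4 Ctrl libraries. Reads were thus implied in every Hypo library and in no Ctrl library, at a depth where a count of 0 allows up to 3 reads per library. Ifnl2 and Ifng, also with transformed values only, did not split this way. Ifnl2 had 1 implied read in Hypo replicate 2 and 4 in Ctrl replicate 3. How many other genes this low show the same split was not counted. Without a filter on low genes, 3309 of 23215 genes rose and 1370 fell, so the split need not be particular to Ifnb1. The difference was not tested.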

How the results depend on the processing

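The calls of Isg15, Usp18, Ifit1 and Rsad2 held under all 22 alternatives. Of the tested members 4 to 7 were called, all as higher, and of the other antiviral effectors 15 to 28 were called, beside 21. Of these calls 2 were falls without Ctrl replicate 3, with or without Hypo replicate 4, and 1 was a fall with quantile normalization, array weights or DESeq2. Quantile normalization turned the direction of Ifit3, which was not called (-0.089 on the transformed scale, limma adjusted p = 0.23), called Bst2 (limma adjusted p = 0.046), and left 2 of 5 calls among relatives and ISG15 enzymes. It lowered the share of rises among all called genes to 48.1% (1818 rose and 1962 fell), beside 61.7%. Array weights called 5952 genes, beside 3597, 24 interferon signaling genes, beside 15, and also Bst2 and Ifi44. Leaving out 1 library each gave 2 to 5 relatives and ISG15 enzymes and 9 to 20 interferon signaling genes, and 2665 to 4838 genes in all.

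With the replicate number as a block, in the 6 libraries with numbers 2, 3 and 4, 1609 genes were called, 4 members, 1 relative or ISG15 enzyme and 7 interferon signaling genes, and Ifit3b was no longer called (limma adjusted p = 0.065). The same libraries without the block gave 2497 genes and 5 members. Deviations of same-numbered libraries had correlations of -0.11, -0.21 and -0.17. Between differently numbered libraries these ran from -0.59 to 0.52, so they cannot decide if same-numbered libraries shared a culture or a preparation.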
